A study of Mus musculus with 6 samples.

Results

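The genes described here are Bpifa1, Bpifa2, Bpifb1 and Bpifb2, which encode secreted proteins of the BPI fold family, 4 of the 19505 named genes on the array. They were chosen by symbol in the platform annotation, as a group that earlier results of these arrays had brought up, with the mean log2 value over all arrays to pick among probe sets. As each gene had 1 probe set, no picking was needed, and the values of the 4 genes are given as a description. RNA was measured in submandibular glands of 3 Myd88-/- and 3 Myd88+/+ mice, all female and 10 weeks old, with 1 array per mouse. The strain labels give NOD.B6-Myd88-/- and NOD.B6-Myd88+/+, so both groups share the NOD background, on which salivary glands become inflamed. The labels do not say how the Myd88 allele was made or whether the mice were littermates. Myd88 is the adaptor of most Toll-like receptors and of the interleukin-1 receptor family.

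BPI fold proteins share a lipid-binding fold with the bactericidal/permeability-increasing protein of neutrophils. The A members are short, with a single BPI domain, and the B members are long, with a pair of them. They are released into saliva and airway fluid, where several of them bind bacterial surfaces or lipids. Bpifa2 encodes parotid secretory protein, an abundant product of the mouse parotid that is also made by the submandibular gland early in life, and abnormal parotid secretory protein has been described in submandibular glands of NOD mice. Bpifa1 (SPLUNC1) and Bpifb1 (LPLUNC1) are best known from airway epithelium. Bpifb2 is a long member that is less well characterised.

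Bpifa2 was the single one of the 4 genes with a signal above background, and it had it in 2 of the 6 glands, both Myd88+/+. The bases just before the start of each gene are shown, to set Bpifa2 beside the 3 genes without such a signal. They are the last 100 bases before each start site in RefSeq, plus strand of chromosome 2, build GRCm38.p6, with matches to the letters TATAA on either strand in capitals. RefSeq gives Bpifb1 2 starts.
Bpifa2, chr2:154008176-154008275: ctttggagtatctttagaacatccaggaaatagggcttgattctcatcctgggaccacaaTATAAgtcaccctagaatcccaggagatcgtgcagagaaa
Bpifa1, chr2:154142780-154142879: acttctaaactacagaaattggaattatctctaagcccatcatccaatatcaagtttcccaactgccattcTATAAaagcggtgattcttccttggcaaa
Bpifb1 start 1, chr2:154190718-154190817: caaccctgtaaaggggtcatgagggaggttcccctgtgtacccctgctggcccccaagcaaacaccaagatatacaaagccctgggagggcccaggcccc
Bpifb1 start 2, chr2:154200280-154200379: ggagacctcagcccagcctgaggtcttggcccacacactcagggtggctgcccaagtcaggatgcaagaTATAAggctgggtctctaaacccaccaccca
Bpifb2, chr2:153874945-153875044: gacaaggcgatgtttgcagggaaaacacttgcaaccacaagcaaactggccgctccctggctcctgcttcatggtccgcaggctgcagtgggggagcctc

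The TATAA match began 40 bases before the start of Bpifa2, 29 before that of Bpifa1 and 31 before the second start of Bpifb1. A TATA box is the usual core promoter element of strongly expressed tissue-specific genes. These letters occurred in 22.8% of the 32851 windows of 250 bases before a start in the RefSeq table, and in 9 of the 18 windows of the 16 BPI fold genes found in it. The same windows were searched on both strands for the NF-kB motif, the interferon-stimulated response element and the STAT element (TTCNNNGAA), which stand for transcription factors activated downstream of Toll-like receptors and interferons. The NF-kB motif and the interferon element matched 0 of the 18 family windows, against 3.9% and 2.98% of all windows. TTCNNNGAA matched 1, before the second start of Bpifb1, against 7.02% of all. A match is a run of letters and not a shown binding site.

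Expression is given as the deposited log2 values, made by RMA (robust multi-array averaging). Where 3 values of a genotype follow each other, they belong to replicates 1, 2 and 3. Each array carries 23 background control probe sets, which match no mouse transcript and differ in base composition. They ran from 2.95 to 6.85 with a median of 5.55. A value above the highest of them on its own array (6.80 to 6.85) is called above background here. Of the 19505 named genes, 9037 were above background on at least 1 array, besides 12 at the top of the scale on all arrays. Array medians lay between 6.0 and 6.1, the 15 pairs of arrays correlated at 0.982 to 0.991 across probe sets, and 0 pairs were identical. Myd88 itself read 7.33, 6.80 and 7.47 in the Myd88-/- glands, against 7.81, 7.86 and 7.53 in the Myd88+/+ glands. The sources used here do not place its probe set inside or outside the deleted part.

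The acinar genes Bhlha15, a transcription factor of secretory cells, and Aqp5, their apical water channel, lay between 13.7 and 15.3 on every array. The granular duct kallikrein Klk1 stood at the ceiling of the scale, 19.93, on all 6. Myd88+/+ replicate 3 stood apart from the other 5 glands. Dcpp3, a secretory gene of the sublingual gland, read 14.9 in it, against 4.65 to 6.59 elsewhere. Galnt12, an enzyme of mucin glycosylation, read 6.38, against 3.60 to 4.31, but every value of Galnt12 lay within background. Of the 3 measured genes of 6 on the list of sublingual mucous markers, Gcnt3 did not follow, at 4.33 in that gland. The pan-leukocyte gene Ptprc was also highest there, at 11.4, against 8.28 to 9.91. The Bpifa2 difference and range and the family counts of groups without overlap are given with and without this gland. Likeness in pattern and marker levels are given with it only. The labels name no batch.

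Bpifa2 read 5.55, 5.78 and 6.38 in the Myd88-/- glands, against 9.35, 10.07 and 6.27 in the Myd88+/+ glands. Myd88+/+ replicates 1 and 2 were high, and Myd88+/+ replicate 3 lay 0.11 below the highest Myd88-/- gland, so the groups overlapped. All 3 Myd88-/- values and that of Myd88+/+ replicate 3 fell inside the span of the background control sets. The order from the top was Myd88+/+ replicates 2 and 1, then Myd88-/- replicate 3, Myd88+/+ replicate 3 and Myd88-/- replicates 2 and 1. The 4 lowest glands were spread over less than 1 log2 unit and their order was not resolved above background.

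**Figure D1:**
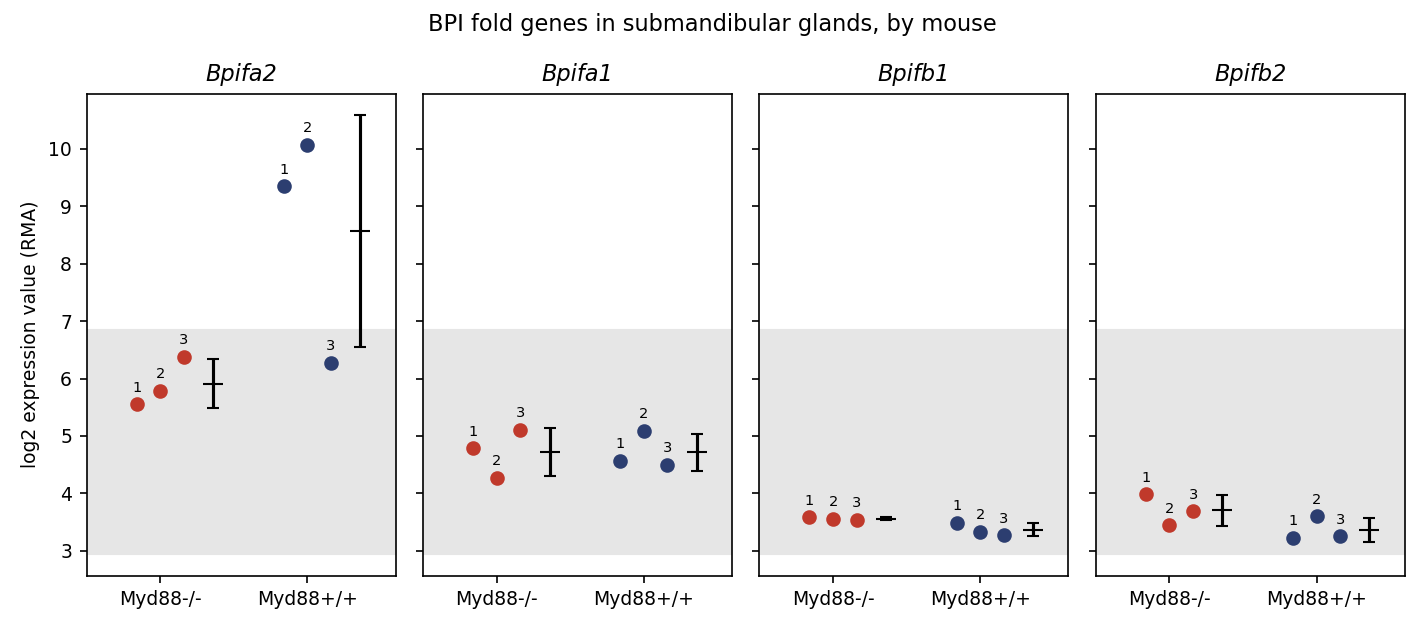
Log2 expression values (y axis) of Bpifa2, Bpifa1, Bpifb1 and Bpifb2 in Myd88-/- (red) and Myd88+/+ (blue) submandibular glands, 1 numbered point per mouse, with the mean and SD of the 3 mice as black bars and the span of the background control sets, 2.95 to 6.85, in grey. Bpifa2 in Myd88+/+ replicates 1 and 2 (9.35 and 10.07) has the only values of the 4 genes above the grey span.

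Bpifa2 averaged 5.91 ± 0.43 in Myd88-/- glands, against 8.57 ± 2.02 in Myd88+/+ glands (SD, n = 3 each). The log2 difference was -2.66 with a standard error (SE) of 0.80, a 6.32-fold lower level in Myd88-/- glands, and limma's p, adjusted over the 22206 probe sets tested, was 0.388, so it did not pass. All 3 Myd88-/- arrays read within background. Set against the highest background set of those arrays in their place, the Myd88+/+ mean was 3.34-fold higher. Of the Myd88+/+ values 2 of 3 were above background. As the mean also holds the unresolved value of replicate 3, this fold is not a lower bound. In bulk RNA, fewer cells that make a transcript and less of it per cell cannot be told apart. Over all probe sets 184 (0.829%) were at least 2-fold lower in group means, and of the 4 genes Bpifa2 was the one that did so. At the adjusted threshold of 0.05, limma called 0 of the 22206 probe sets lower and 0 higher (0% each), and 0 of the 4 genes. At an unadjusted p under 0.05 it counted 1233 lower (5.55%) and 999 higher (4.5%).

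The call on Bpifa2 turned on Myd88+/+ replicate 3. Without that gland the log2 difference was -3.81 with an SE of 0.31, and limma's adjusted p was 0.0242. Bpifa2 was then the 1 probe set called of 22206. As that gland had the lowest Bpifa2 of its genotype, its removal is bound to widen the difference. Without each of the other 5 mice in turn the difference ran from -2.90 to -1.91, with limma's adjusted p between 0.297 and 0.682. The smallest difference, -1.91, came without Myd88+/+ replicate 2.

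**Figure D2:**
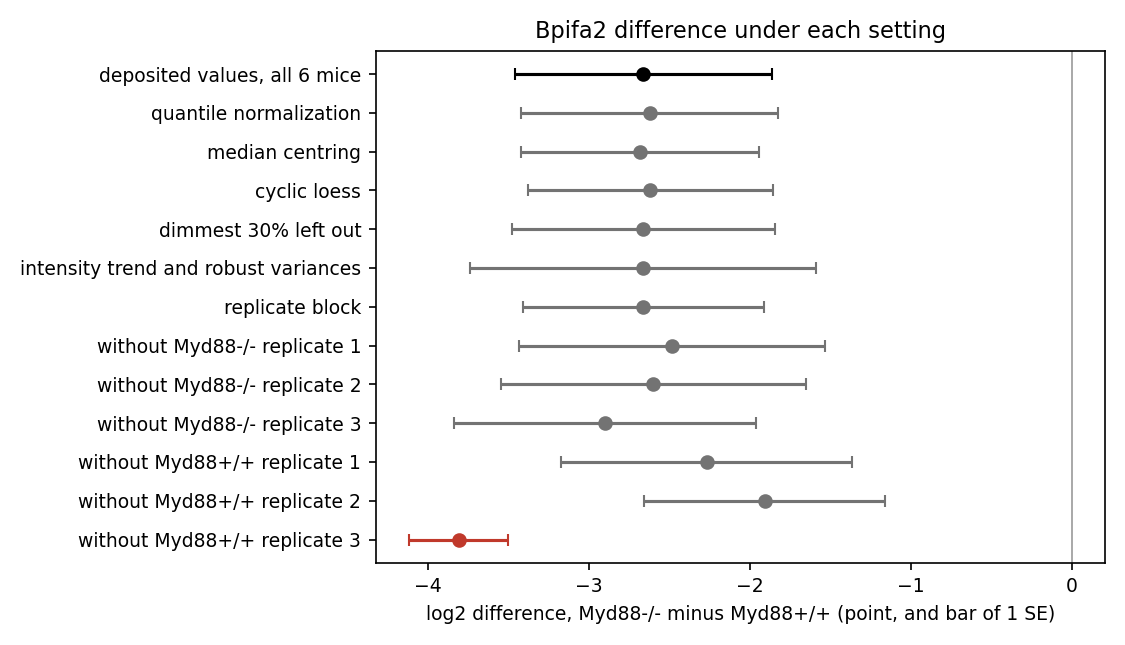
Log2 difference of Bpifa2, Myd88-/- minus Myd88+/+ (x axis), with bars of 1 SE, for the deposited values (black) and 12 other settings (grey, red where limma's adjusted p was under 0.05). Every point lies below 0, between -3.81 and -1.91, and the setting without Myd88+/+ replicate 3 is the one past the threshold.

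The Bpifa2 values had a range of 0.83 log2 units over the 3 Myd88-/- glands and 3.80 over the 3 Myd88+/+ glands. Within Myd88+/+, 15 of the 19505 genes had a larger range, and the median range was 0.41. As replicate 3 read within background, replicates 1 and 2 were at least 5.72-fold and 9.41-fold higher than it, taken against the highest background set of its array. Within Myd88-/-, 2693 genes had a larger range, and the median was 0.45. As all 3 Myd88-/- values were within background, their range does not resolve the spread of Bpifa2 expression in that group. Without replicate 3, the Myd88+/+ values lay 0.72 apart. The difference in spread was not tested. In 1596 genes both Myd88+/+ replicates 1 and 2 lay above the other 4 glands, a pattern looked for after the values of Bpifa2 were seen. The gap was widest for Bpifa2, at 2.97 log2 units, and next widest for Slc37a2, a sugar-phosphate transporter, at 1.03. Slc37a2 read 10.14, 11.68 and 12.02 in the Myd88-/- glands, against 13.36, 13.88 and 12.33 in the Myd88+/+ glands. Its groups did not overlap, unlike those of Bpifa2.

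Markers of the parotid, the gland in which Bpifa2 is most abundant, did not separate the glands in this way. Of 7 parotid markers 6 were measured, and Car6, a secreted carbonic anhydrase that the submandibular gland makes too, was at the ceiling on all arrays. The mean level of the other 5 was 5.89 to 6.14 in Myd88-/- and 5.79 to 5.95 in Myd88+/+ glands. Of these 5, 3 were above background on at least 1 array and 0 on all arrays, so their levels resolve little between glands. Amy1, the salivary amylase that parotid acini make, read 6.77, 6.64 and 6.72 in the Myd88-/- glands, against 6.83, 6.66 and 6.52 in the Myd88+/+ glands. All 6 values of Amy1 were at or near the highest background control set. The sublingual gene Dcpp3 read 6.59, 4.80 and 5.31 in the Myd88-/- glands, against 4.65, 4.70 and 14.9 in the Myd88+/+ glands. It was within background in all glands but Myd88+/+ replicate 3, those with high Bpifa2 and the Myd88-/- glands alike. Among intercalated duct genes, Smgc, a secretory product of the newborn gland and of adult intercalated ducts, read 18.9 to 19.2 in Myd88-/- and 18.8 to 19.8 in Myd88+/+ glands. Kit, a receptor of duct progenitor cells on the same list, did have its 2 highest values in the glands with high Bpifa2. It read 9.51, 9.63 and 9.78 in the Myd88-/- glands, against 10.17, 10.01 and 9.51 in the Myd88+/+ glands, over a far smaller range than Bpifa2. The last gene of the list, Gfra3, read 6.78 to 7.36 in Myd88-/- and 7.33 to 7.61 in Myd88+/+ glands, without that order. Bhlha15 overlapped between the genotypes too, at 14.4, 14.8 and 15.0 in the Myd88-/- glands, against 15.3, 14.8 and 14.3 in the Myd88+/+ glands.

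By group means, leukocyte markers were lower in Myd88-/- glands than in Myd88+/+ glands in 6 of 6 measured genes of 7. Of these, 3 were above background on all arrays. Itgam and Cd79a were within background in every gland, and Cd3e in every gland but Myd88+/+ replicate 3. The list had a mean level of 6.64 to 6.72 in Myd88-/- glands, against 7.26 to 8.96 in Myd88+/+ glands, and 0 of the 6 passed limma's adjusted test. Within Myd88+/+ the gland with the highest leukocyte level, replicate 3, was the one with background Bpifa2. The part of inflammation or of sublingual tissue in the Bpifa2 values was not tested.

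By Pearson's r over the 6 arrays, the gene most like Bpifa2 was Nr1d1, which encodes the circadian repressor REV-ERB alpha, at r = 0.997 among 2598 genes with a mean above the background median and a range of at least 1. Nr1d1 read 12.05, 12.13 and 12.24 in the Myd88-/- glands, against 13.10, 13.18 and 12.25 in the Myd88+/+ glands. Nr1d1 overlaps Thra on the opposite strand. As with Bpifa2, Myd88+/+ replicates 1 and 2 were high and replicate 3 lay near the Myd88-/- glands, but over a far smaller range. Next came Hid1, a gene of secretory granule formation, at 0.971 and Ndufv1, a subunit of mitochondrial complex I, at 0.968. Hid1 read 12.64, 12.97 and 12.97 in the Myd88-/- glands, against 13.59, 13.70 and 13.03 in the Myd88+/+ glands. Ndufv1 read 13.75, 14.11 and 13.95 in the Myd88-/- glands, against 14.78, 14.84 and 14.02 in the Myd88+/+ glands. Both had their 2 highest values in the glands with high Bpifa2, within a span of about 1 log2 unit. After each group's mean was removed, Nr1d1 again ranked first (0.993), followed among named genes by Psat1, an enzyme of serine synthesis (0.969), and Ces1e, a carboxylesterase (0.967). Psat1 read 11.15, 10.81 and 11.34 in the Myd88-/- glands, against 11.70, 12.25 and 10.38 in the Myd88+/+ glands. It thus had its highest value, like Bpifa2, in Myd88+/+ replicate 2. Its lowest value of all 6 was in Myd88+/+ replicate 3, where Bpifa2 was lowest within Myd88+/+ only. With 6 points set largely by 2 glands, 8 of the 2598 genes reached 0.95 over all arrays and 11 within groups, so these values describe likeness only.

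**Figure D3:**
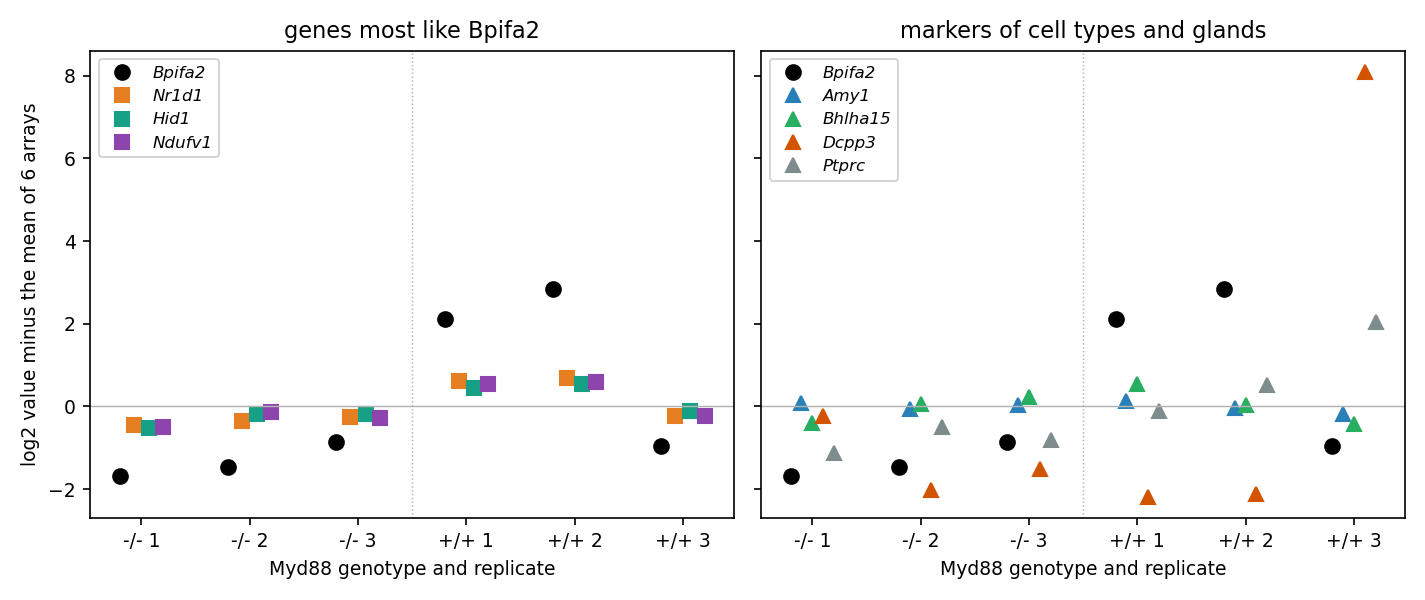
Log2 value minus the gene's mean over 6 arrays (y axis) for each gland (x axis), with Bpifa2 in black beside the 3 genes most like it on the left and beside markers of parotid (Amy1), acini (Bhlha15), sublingual gland (Dcpp3) and leukocytes (Ptprc) on the right. Nr1d1, Hid1 and Ndufv1 are high in the same 2 Myd88+/+ glands as Bpifa2, whereas Dcpp3 and Ptprc are highest in Myd88+/+ replicate 3 (14.9 and 11.4 in log2 value).

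Bpifa1, whose protein binds lipids at the airway surface and restrains its sodium channel, read 4.79, 4.28 and 5.11 in the Myd88-/- glands, against 4.57, 5.09 and 4.50 in the Myd88+/+ glands. All 6 values lay under the background control median and the groups overlapped. The means were 4.72 ± 0.42 in Myd88-/- glands and 4.72 ± 0.32 in Myd88+/+ glands (SD, n = 3 each). The log2 difference was 0.01 (SE 0.25, limma adjusted p = 0.998), and its sign turned under quantile normalization, median centring and cyclic loess. Its levels give no sign of expression above background in these glands. Behind 2 genes left unnamed by rule, the genes most like it were Hamp2, a hepcidin gene, at r = 0.965, Zbtb16, a transcription factor, at 0.962 and Eml5 at 0.961. Once group means were removed, the named genes most like it, again behind 2 unnamed ones, were Elmo3 (0.985), Kcnj5 (0.983) and Car4 (0.981). Of 2599 genes compared, 6 reached 0.95 over all arrays and 20 within groups. With every Bpifa1 value under the background median, these r values describe likeness of dim readings only.

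Bpifb1, a long member made by airway goblet cells and submucosal glands, read 3.59, 3.56 and 3.54 in the Myd88-/- glands, against 3.49, 3.33 and 3.27 in the Myd88+/+ glands. The groups did not overlap, with Myd88-/- higher, as in 1740 of all probe sets (7.84%), and of the 4 genes it was the one that did so. The log2 difference was 0.20 (SE 0.16, limma adjusted p = 0.704), near the low end of the scale where every value lay under the background median. Armcx1 (0.984) and the osteocalcin genes Bglap2 (0.983) and Bglap (0.978) were the genes most like it, the last 2 being near-identical copies. Of 2599 genes compared, 4 reached 0.95 over all arrays and 23 within groups. As for Bpifa1, these r values describe likeness of dim readings only. The range of Bpifb1 was 0.05 log2 units over the Myd88-/- glands and 0.22 over the Myd88+/+ glands. Of the 19505 genes, 19270 and 15610 had larger ranges.

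Bpifb2 read 3.98, 3.44 and 3.69 in the Myd88-/- glands, against 3.23, 3.60 and 3.26 in the Myd88+/+ glands. The groups overlapped, and the log2 difference was 0.34 (SE 0.20, limma adjusted p = 0.597). Its means were 3.70 ± 0.27 in Myd88-/- glands and 3.36 ± 0.21 in Myd88+/+ glands (SD, n = 3 each). As for Bpifb1, no value reached the background median. Its nearest genes in pattern were Myom1, a protein of the sarcomere, at 0.988, Adamts14, a metalloprotease, at 0.981 and Mfsd4b1, a transporter, at 0.975. With group means removed the order was Mfsd4b1 (0.996), Myom1 (0.993) and Pomc, a hormone precursor (0.991). Of 2599 genes compared, 6 reached 0.95 over all arrays and 12 within groups. For Bpifb2 too, these r values describe likeness of dim readings only. Airway epithelial markers, of which 8 of 9 were measured, were mostly dim as well, with 6 of 8 means under the background median. Scgb1a1, the secretoglobin of airway club cells, read 3.35 to 3.54 in Myd88-/- and 3.24 to 3.53 in Myd88+/+ glands.

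The 4 genes lie in 1 run of 13 BPI fold genes on chromosome 2, in the gene order of RefSeq GRCm38.p6, which holds 1 other protein-coding gene, Cdk5rap1. Myd88 is on chromosome 9. Bpifa6 and Bpifa3 lie on either side of Bpifa2, and neither shared its pattern. Bpifa6 read 3.35, 3.87 and 3.59 in the Myd88-/- glands, against 3.20, 3.52 and 3.58 in the Myd88+/+ glands. Bpifa3, a short member, read 5.22, 5.80 and 5.28 in the Myd88-/- glands, against 5.55, 5.32 and 5.52 in the Myd88+/+ glands. Both genes overlapped between groups, with every value under the highest background control set. Bpifa5, next to Bpifa1 and Bpifb1, was dim and higher in Myd88-/- glands without overlap. It read 4.31, 4.47 and 4.58 in the Myd88-/- glands, against 4.15, 3.45 and 3.83 in the Myd88+/+ glands, a log2 difference of 0.65 (SE 0.21, limma adjusted p = 0.412). The long members Bpifb3, Bpifb4, Bpifb5, Bpifb6 and Bpifb9a had log2 differences of -0.21 to 0.03, all with overlapping groups and none above background. Bpifc, which lies apart on chromosome 10, had 0.37 and overlapped as well.

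Elsewhere in the run on chromosome 2, Bpifb9b, a relative of rat vomeromodulin, a product of nasal glands, read 7.06, 7.09 and 6.55 in the Myd88-/- glands, against 6.34, 6.49 and 6.39 in the Myd88+/+ glands. Myd88-/- replicates 1 and 2 were above background and the other 4 glands were not. Bpifb9b and its neighbour Bpifb9a are paralogs, and probes that match both would blur the values of each.

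Of all 17 listed family genes, which include the lipid-transfer relatives Bpi, Lbp and Pltp, all 17 were measured and 13 were above background on no array. The others were Bpifa2, Bpifb9b, Lbp and Pltp. Over all named genes, 9037 of 19505 were above background on at least 1 array, besides 12 at the ceiling. By sign 8 were lower and 9 higher in Myd88-/- glands, with a median log2 difference of 0.01, as over all named genes (0.01). At the adjusted threshold 0 of 17 were called (0% of all probe sets), and 2 of 17 were at least 2-fold lower (0.829% of all) and 0 of 17 at least 2-fold higher (0.0721% of all). Groups did not overlap in 2 genes with Myd88-/- lower (7.25% of all) and in 4 with Myd88-/- higher (7.84% of all). Without Myd88+/+ replicate 3 these counts were 4 lower, Bpifa2 among them, and 4 higher. With 1 array fewer, groups fail to overlap more often for any gene, and 12.9% of all probe sets were then lower and 12.4% higher without overlap.

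**Figure D4:**
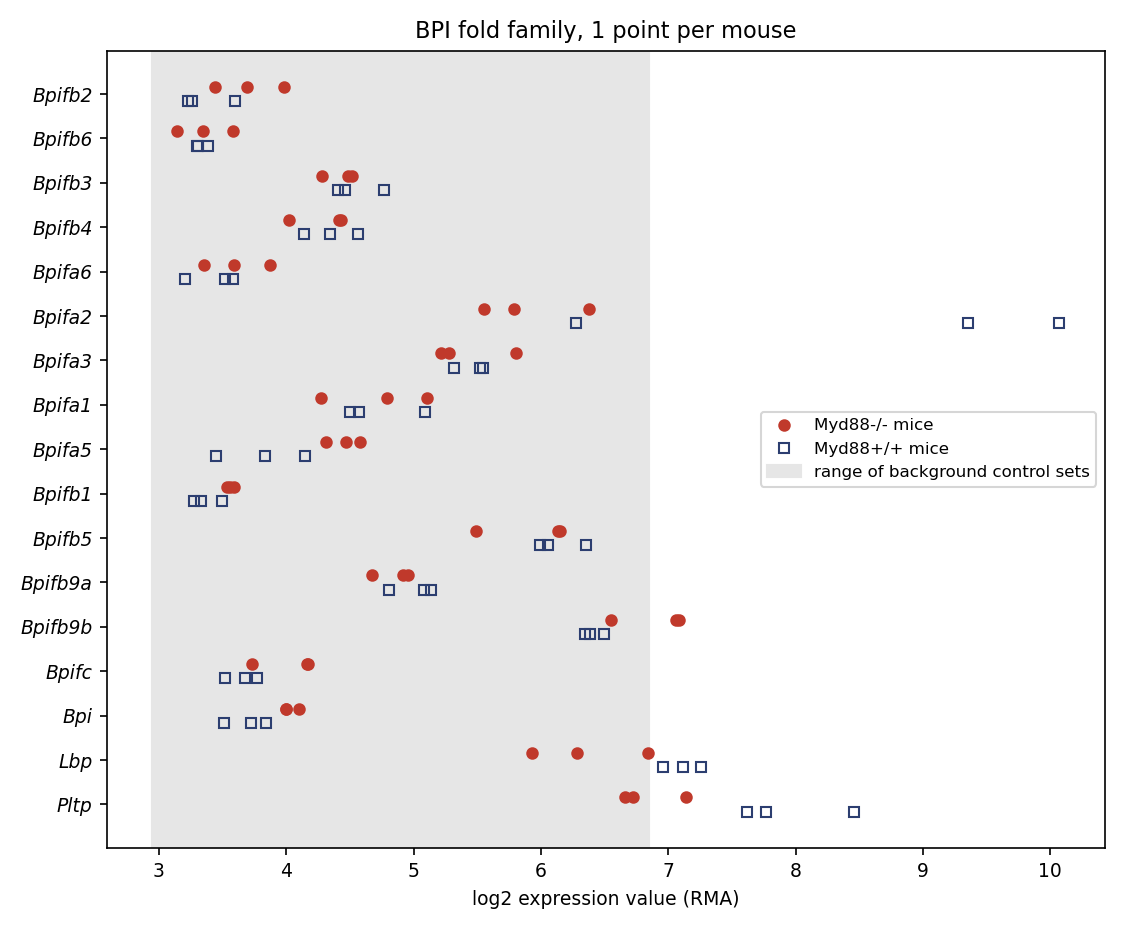
Log2 expression values (x axis) of the 17 BPI fold family genes, the first 13 in their order on chromosome 2, with filled circles for Myd88-/- and open squares for Myd88+/+ mice and the span of the background control sets in grey. Only Bpifa2, Bpifb9b, Lbp and Pltp have points beyond the span or its edge, and Bpifa2 has the 2 highest.

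The 2 genes that were lower without overlap were Lbp and Pltp. Lbp encodes the plasma protein that hands bacterial lipopolysaccharide to the CD14 and Toll-like receptor 4 complex. It read 5.93, 6.84 and 6.28 in the Myd88-/- glands, against 6.96, 7.26 and 7.11 in the Myd88+/+ glands, a log2 difference of -0.76 (SE 0.24, limma adjusted p = 0.395). Pltp, the phospholipid transfer protein of plasma and of macrophages, read 6.66, 7.14 and 6.73 in the Myd88-/- glands, against 7.77, 7.62 and 8.46 in the Myd88+/+ glands. Its log2 difference was -1.11 (SE 0.25, limma adjusted p = 0.339), and -0.85 without Myd88+/+ replicate 3. For both Lbp and Pltp, Myd88-/- replicates 1 and 3 read within background, so the size of these differences is not resolved. Among the Myd88+/+ glands Pltp was highest in replicate 3, the gland with the highest leukocyte level and background Bpifa2. Lbp was highest in replicate 2, as Bpifa2 was, and lowest in replicate 1. Bpi, the neutrophil granule protein that names the family, read 4.10, 4.0 and 4.0 in the Myd88-/- glands, against 3.51, 3.84 and 3.72 in the Myd88+/+ glands, all under the background median. Neutrophil markers were dim too, with 5 of 6 measured and 0 of them above background on any array.

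Among 15 other genes of mucosal defence 14 were measured, with 5 of 14 lower and 9 higher in Myd88-/- glands, a median log2 difference of 0.07 and 0 of 14 called. Pigr, which carries IgA into saliva, read 10.4, 12.3 and 13.1 in the Myd88-/- glands, against 15.0, 15.4 and 16.2 in the Myd88+/+ glands. Its groups did not overlap, and within Myd88+/+ it was highest in replicate 3, where Bpifa2 was at background. Lcn2, which binds bacterial iron carriers, read 6.31, 7.17 and 6.09 in the Myd88-/- glands, against 7.60, 8.36 and 8.42 in the Myd88+/+ glands. Its values in Myd88-/- replicates 1 and 3 were within background. Pigr and Lcn2 were the 2 of 14 lower without overlap (7.25% of all probe sets), and 2 of 14, Wfdc12 and Defb1, were higher without overlap (7.84% of all). Wfdc12, a secreted protease inhibitor, read 17.52, 16.37 and 17.28 in the Myd88-/- glands, against 15.96, 15.81 and 15.58 in the Myd88+/+ glands. Defb1, a defensin, read 6.19, 5.76 and 6.38 in the Myd88-/- glands, against 4.97, 5.65 and 4.99 in the Myd88+/+ glands, all within background. Wfdc12, Defb1, Dmbt1 and Lpo were picked out after their values were seen. Dmbt1, a mucin-like protein that aggregates bacteria, was high in Myd88+/+ replicate 3 alone, at 11.0, against 4.55 to 5.14 in the other 5 glands. Lpo, the salivary peroxidase, stayed between 19.1 and 19.5 in all 6.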

How the data were processed

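Submandibular gland RNA of 6 mice was hybridised to Clariom S arrays. The authors deposited RMA values that came, per the labels, from the Transcriptome Analysis Console. Its version, the RMA variant and the genome build are not stated there or in the submitters' processing notes. That the deposited values are log2 was inferred from their span, 2.26 to a ceiling of 19.93. RMA compresses differences near background and the ceiling hides them at the top.

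Of 28846 probe sets, 6640 controls were left out. Of the 22206 tested, 19572 had 1 gene symbol, 0 several and 2634 none, giving 19505 genes. Groups came from the titles. The groups were compared as Myd88-/- minus Myd88+/+ with limma 3.58.1 in R 4.3.3 (lmFit, eBayes, no covariates), p-values adjusted by Benjamini-Hochberg across the 22206, and the code was tested on simulated data. The number of arrays limits precision.

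The members and lists were chosen with earlier results of these data known. Named genes came from the 4 genes and the BPI fold family. From each other list they were drawn from its first 2 and up to 2 of smallest p. Any marker of another gland and the 3 genes most like each member could also be named (predicted and clone-named genes were not). Not every gene allowed by these rules was named, and lists of fat and skeletal muscle markers were left out of the text. Some genes outside these rules were also named, several after their values were seen. Same-numbered mice were not paired, as they did not deviate together. Other settings were quantile normalization, median centring, cyclic loess and leaving out the dimmest 30% of probe sets. Further ones were an intensity trend with robust variances, the replicate block and leaving out each mouse. Promoter windows are RefSeq's, GRCm38.p6.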

Additional observations from a re-analysis of the deposited data

How the results depend on the processing

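Bpifa2 stayed lower in Myd88-/- glands under all 12 settings. With all mice kept, its log2 difference ran from -2.68 to -2.62 (limma adjusted p from 0.30 to 0.546). These settings were the other normalizations, the filter on dim probe sets, the intensity trend with robust variances and the replicate block. Without 1 mouse the difference ran from -3.81 to -1.91. The value of -3.81, without Myd88+/+ replicate 3, was the one that passed. Bpifa1 turned sign to -0.0799 after quantile normalization, -0.0154 after median centring and -0.0780 after cyclic loess, and ran from -0.19 to 0.23 without 1 mouse, values within its error. Bpifb1 and Bpifb2 kept their sign in every setting that measured them. Leaving out the dimmest 30% of probe sets removed Bpifa1, Bpifb1 and Bpifb2. No second probe set could be tried, as each gene has 1.

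Over all probe sets the count called lower was 0, against 2 with median centring and 4 with the intensity trend and robust variances. Without 1 mouse the count was 0 to 5, and 0 were called higher in any setting. With the replicate number as a block the Bpifa2 difference was -2.66 (limma adjusted p = 0.546) and 0 probe sets were called. The deviations of same-numbered mice correlated at -0.113, -0.155 and -0.0195. Family genes lower without overlap numbered 2, and 4 without Myd88+/+ replicate 3, a setting chosen after seeing the data, in which 12.9% of all probe sets were lower without overlap, against 7.25% with all mice. Signal over background limits every value of Bpifa1, Bpifb1 and Bpifb2 and the Bpifa2 values of 4 glands.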

Other observations

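After Nr1d1 had ranked first in likeness to Bpifa2, 7 other circadian clock genes were looked at. Npas2, a clock gene outside these 7, had its 2 highest values in Myd88+/+ replicates 1 and 2, at 6.43 and 6.46. It read 5.56 to 5.99 in the other glands, and all its values lay within background. Of the 7, Clock, an activator of the clock, was the one in which Myd88+/+ replicates 1 and 2 also had the 2 highest values. It read 13.58, 13.74 and 13.45 in the Myd88-/- glands, against 14.08, 13.76 and 13.71 in the Myd88+/+ glands, so that replicate 2 barely exceeded the next gland. Dbp, an output gene of the clock, read 16.01, 15.58 and 16.48 in the Myd88-/- glands, against 16.31, 15.47 and 15.69 in the Myd88+/+ glands. Per2, a repressor of the clock, read 6.71, 7.12 and 7.88 in the Myd88-/- glands, against 7.30, 6.59 and 6.88 in the Myd88+/+ glands. In Dbp and Per2 the groups overlapped, and Myd88+/+ replicate 2, the gland with the most Bpifa2, had the lowest value of all 6. Nr1d2, the close relative of Nr1d1, read 12.7, 12.5 and 12.9 in the Myd88-/- glands, against 12.8, 12.8 and 12.8 in the Myd88+/+ glands.

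A2ml1, a protease inhibitor of the alpha-2-macroglobulin family named after its values were seen, read 18.1 in Myd88+/+ replicate 3, where Dcpp3 was also high, 8.78 in Myd88-/- replicate 1 and 4.74 to 5.55 in the other 4 glands. Ascl3, a transcription factor of duct ionocytes, read 8.10, 8.41 and 8.32 in the Myd88-/- glands, against 9.57, 9.47 and 8.67 in the Myd88+/+ glands. Like Bpifa2 it was highest in Myd88+/+ replicates 1 and 2, and unlike Bpifa2 its groups did not overlap (limma adjusted p = 0.360).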
